A study of Mus musculus with 4 samples.

Results

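Fibroblast growth factor (FGF) signalling in the posterior end of the mouse embryo was followed through 10 genes chosen by name, 9 of them among the 18220 genes named on the array. They were the ligand genes Fgf3, Fgf4, Fgf8, Fgf17 and Fgf18, the receptor gene Fgfr1, and the feedback and target genes Spry2, Spry4, Dusp6 and Etv4. All 9 members other than Fgf4 had a probe named by accession, and all 9 were measured well above background on all 4 arrays. No probe was named for Fgf4, and it was not analysed here.

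The samples were total RNA from the posterior portion of E9.5 embryos of 2 genotypes, Jmjd3-/- and wild-type, obtained by crossing Jmjd3+/- mice with each other and staged by time after mating and by somite number. Jmjd3, now named Kdm6b, encodes a demethylase of histone H3. Each genotype had 2 RNA samples, numbered 1 and 9 for Jmjd3-/- and 3 and 4 for wild-type, and each sample was labelled with Cy3 and hybridised to its own 1-colour Agilent array. The labels do not describe the Jmjd3 allele, and nothing in them says how many embryos went into a sample, so p-values measure only the spread between these samples, which may be technical.

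Across the arrays, 59.8% to 63.0% of 41174 probes were well above background and no spot was saturated. Kdm6b, measured by 1 probe, had a normalised log2 signal of 0.35 in Jmjd3-/- replicate 1 and 0.11 in replicate 9, compared with 2.15 in wild-type replicate 3 and 2.23 in replicate 4. The position of that probe relative to the deletion is not stated, so its signal may not test the labels. By the file headers, Jmjd3-/- lay at slide positions 1 and 4 and wild-type at positions 2 and 3. Genotype thus cannot be told apart from an effect of lying at the ends or in the middle. If all 4 arrays shared 1 slide, a trend along it is balanced between the genotypes.

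FGF ligands are secreted proteins that bind receptor tyrosine kinases together with heparan sulphate and act through the Ras and ERK kinase cascade. In the tail bud and presomitic mesoderm, FGF8 and its relatives FGF17 and FGF18 belong to one subfamily and, with FGF4, keep cells unsegmented while the axis grows. The ERK cascade induces ETS transcription factor genes such as Etv4 and the genes of its own inhibitors, the Sprouty proteins and the phosphatase DUSP6, so that transcripts of this second group are often used as a readout of the signal.

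Promoters from both sides of the ligand and feedback comparison are shown. They are the ligand promoters with the fewest and the most CpG of those read, beside that of a feedback gene. Promoters of Fgf3, Fgf4, Fgf18, Spry2 and Dusp6 were read from the RefSeq promoter table (GRCm38.p6). Those of Fgf8, Fgf17, Fgfr1, Spry4 and Etv4 were not read, so the ligand and feedback groups are covered only in part. The 250 bases before the start are printed along the gene's strand, with each CpG in capitals, for Fgf3 (chr7:144838362-144838611, plus strand), Fgf18 (chr11:33147401-33147650, minus strand) and Dusp6 (chr10:99262981-99263230, plus strand).
Fgf3: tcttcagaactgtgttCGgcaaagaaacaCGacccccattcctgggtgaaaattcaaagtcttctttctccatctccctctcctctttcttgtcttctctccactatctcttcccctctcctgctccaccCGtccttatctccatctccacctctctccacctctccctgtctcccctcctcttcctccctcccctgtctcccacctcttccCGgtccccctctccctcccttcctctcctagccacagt
Fgf18: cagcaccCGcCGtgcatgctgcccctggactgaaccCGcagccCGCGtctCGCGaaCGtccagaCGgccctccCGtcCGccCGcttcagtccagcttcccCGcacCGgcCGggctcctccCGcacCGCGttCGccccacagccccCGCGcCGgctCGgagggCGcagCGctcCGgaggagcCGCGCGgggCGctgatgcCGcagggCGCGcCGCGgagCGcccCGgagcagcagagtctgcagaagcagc
Dusp6: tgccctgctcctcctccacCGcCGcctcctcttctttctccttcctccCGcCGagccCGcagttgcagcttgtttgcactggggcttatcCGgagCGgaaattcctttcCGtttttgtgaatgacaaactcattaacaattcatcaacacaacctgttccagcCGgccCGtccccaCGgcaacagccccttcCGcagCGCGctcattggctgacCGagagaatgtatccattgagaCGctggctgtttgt
The ligand promoters differed widely in CpG content, with 4 CpG in Fgf3, 37 in Fgf18 and 21 in Fgf4. Of all promoters, 37.8% held fewer CpG than Fgf3 and 97.8% held fewer than Fgf18. The feedback promoters that were read lay between, with 16 in Dusp6 and 23 in Spry2, against a median of 6 over 32841 promoters. None of the 5 held CCGGAAG (one extended form of an ETS site, of which shorter forms were not searched), CTTTGAT (TCF/LEF) or GGTGTGA (T-box) on either strand in this window. Those letters were found in 6.91%, 3.21% and 3.33% of all promoters of the table.

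Jmjd3-/- and wild-type samples were compared to ask how FGF transcripts differ without Jmjd3. The mean signal in Jmjd3-/- was higher by 0.87 to 1.36 (log2) for the 4 measured FGF ligand genes and by 1.57 for the target gene Etv4. The inhibitor genes Spry2, Spry4 and Dusp6 and the receptor gene Fgfr1 differed by 0.12 to 0.61. Every member but Dusp6 had higher signals on both Jmjd3-/- arrays than on either wild-type array, as did 23.0% of all genes tested. Over all 13579 genes tested, 0 of the 9 members passed an adjusted p of 0.05 (limma), beside 0.0368% of all genes, with 0.0221% higher and 0.0147% lower in Jmjd3-/-. At an unadjusted p under 0.05, 4 of 9 members were higher and 0 lower, namely Fgf3, Fgf8, Fgf17 and Etv4, beside 5.15% of all genes higher and 5.92% lower. The members were read on the same 4 arrays and are not independent of each other. In bulk tissue, more cells of a type and more RNA per cell cannot be told apart.

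**Figure D1:**
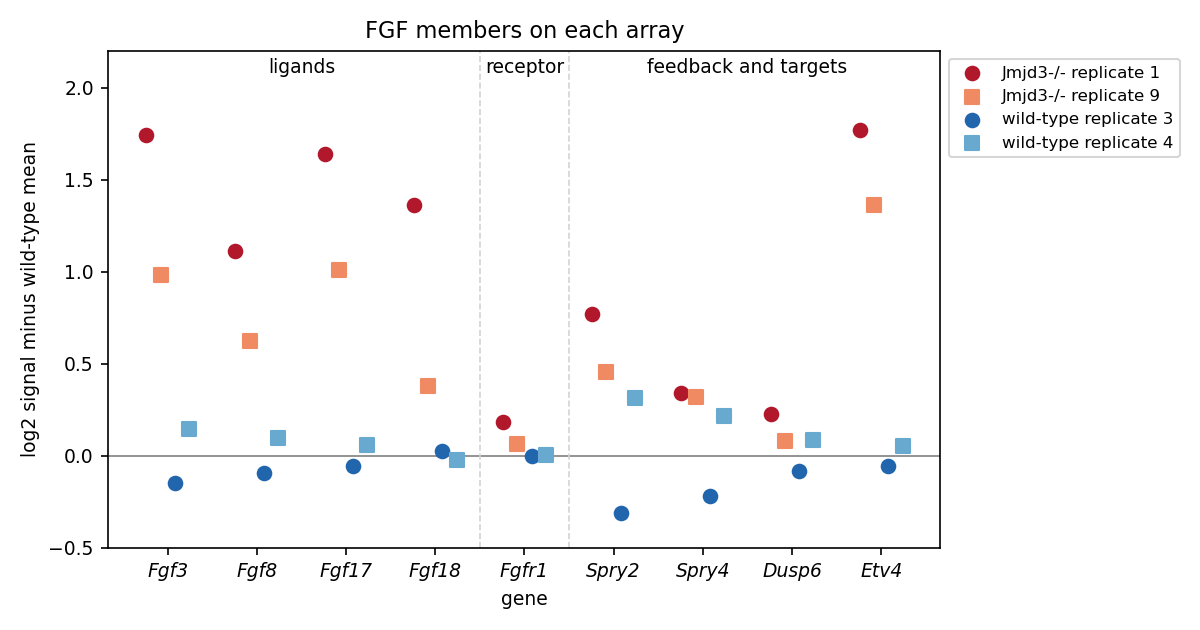
Each point is the normalised log2 signal of a gene on an array, relative to the wild-type mean, with genes along the horizontal axis grouped by role. For every gene but Dusp6 both Jmjd3-/- arrays (red and orange) lie above both wild-type arrays (dark and light blue), as for 23.0% of all genes tested. Jmjd3-/- replicate 1 lies above replicate 9 for every gene shown.

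Signals are given as log2 of the processed intensity less the 75th percentile of the array, so 0 is the level that 75% of probes do not exceed. A level of one gene is not comparable with that of another, because each probe binds with its own strength. Fgf3, a ligand gene of the tail bud, hindbrain and pharyngeal region, had a log2 signal of −1.92 in Jmjd3-/- replicate 1 and −2.68 in replicate 9, compared with −3.80 in wild-type replicate 3 and −3.51 in replicate 4. The genotypes did not overlap, and replicate 1 was the highest array. The log2 difference was 1.36 (SE 0.30, 95% interval 0.50 to 2.22, limma adjusted p = 0.335), a 2.57-fold difference in the mean. The probe was dim, with a processed intensity of 160 and 90.4 in Jmjd3-/- and 42.8 and 54.9 in wild-type, and with normexp background correction the difference was 0.79.

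Fgf17 was the other dim ligand. Its log2 signal was −1.13 in Jmjd3-/- replicate 1 and −1.76 in replicate 9, compared with −2.83 in wild-type replicate 3 and −2.72 in replicate 4. Both Jmjd3-/- arrays stood clear of the wild-type pair, which lay 0.11 apart. The difference was 1.33 (SE 0.24, 95% interval 0.64 to 2.01, limma adjusted p = 0.329). With normexp it was 0.86. It was 1.01 without Jmjd3-/- replicate 1 and 1.64 without replicate 9, from fits in which the lone Jmjd3-/- array is assumed to vary like the wild-type arrays.

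Fgf8, the ligand most studied in the tail bud, was printed on 10 spots of each array. Its log2 signal was 2.46 in Jmjd3-/- replicate 1 and 1.98 in replicate 9, compared with 1.26 in wild-type replicate 3 and 1.45 in replicate 4. The SD over the 10 spots was between 0.039 and 0.042 on each array, far under the 0.49 between the Jmjd3-/- arrays or the 0.19 between the wild-type arrays. The difference was 0.87 (SE 0.20, 95% interval 0.29 to 1.44, limma adjusted p = 0.345). A dimmer probe annotated to another Fgf8 transcript gave −2.25 and −2.75 in Jmjd3-/-, against −3.44 and −3.43 in wild-type, a difference of 0.94 (SE 0.21 in a fit over all probes). The probes of Fgf8 thus gave the same direction and nearly the same size.

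Fgf18, whose product belongs to the FGF8 subfamily, was the ligand on which the Jmjd3-/- samples were furthest apart. Its log2 signal was 4.00 in Jmjd3-/- replicate 1 and 3.02 in replicate 9, compared with 2.66 in wild-type replicate 3 and 2.61 in replicate 4. Replicate 9 lay above both wild-type arrays but nearer to them than to replicate 1. The difference was 0.87 with an SE of 0.37, and its 95% interval of −0.17 to 1.91 held 0 (limma adjusted p = 0.497). It was 0.38 without Jmjd3-/- replicate 1, and 1.36 without replicate 9.

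Fgfr1, the main FGF receptor gene of the mesoderm, differed little. Its brightest probe had a log2 signal of 0.02 in Jmjd3-/- replicate 1 and −0.10 in replicate 9, compared with −0.17 in wild-type replicate 3 and −0.16 in replicate 4. The difference was 0.12 (SE 0.08, 95% interval −0.11 to 0.36, limma adjusted p = 0.631), and 0.07 without Jmjd3-/- replicate 1. The dimmer Fgfr1 probes gave 0.30 (SE 0.12) and 0.58 (SE 0.29) in the fit over all probes. On the second of these the closest arrays were Jmjd3-/- replicate 9 at −2.96 and wild-type replicate 4 at −3.03. The mean of the 3 probes differed by 0.33.

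Etv4, an ETS transcription factor gene that FGF signalling induces, had the largest difference of the members. Its log2 signal was 1.36 in Jmjd3-/- replicate 1 and 0.96 in replicate 9, compared with −0.46 in wild-type replicate 3 and −0.35 in replicate 4. Each genotype's arrays lay within 0.41 of each other and the genotypes did not overlap. The difference was 1.57 (SE 0.17, 95% interval 1.09 to 2.04), a 2.96-fold difference in the mean, with rank 65 of 13579 by p and a limma adjusted p of 0.191. Of all genes tested, 0.302% had a larger positive difference. Without Jmjd3-/- replicate 9 the difference was 1.77, and over the 13 alternatives tried the difference lay between 1.36 and 1.77.

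The 3 inhibitor genes differed less, and for them the wild-type arrays were as far apart as the genotypes. Spry2, which encodes a Sprouty inhibitor of receptor tyrosine kinase signalling, had a log2 signal of 0.89 in Jmjd3-/- replicate 1 and 0.57 in replicate 9, compared with −0.20 in wild-type replicate 3 and 0.43 in replicate 4. The difference was 0.61 (SE 0.26, 95% interval −0.13 to 1.36, limma adjusted p = 0.503), beside 0.62 between the wild-type arrays. A dimmer Spry2 probe gave −0.38 and −0.03 in Jmjd3-/-, against −0.26 and −0.28 in wild-type, a difference of 0.06 (SE 0.16) with overlap. The probes of Spry2 thus disagreed, and the mean over both was 0.34. Leaving out wild-type replicate 3 gave 0.30 and leaving out wild-type replicate 4 gave 0.93.

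Spry4, the gene of a related Sprouty protein, had a log2 signal of −1.21 in Jmjd3-/- replicate 1 and −1.24 in replicate 9, compared with −1.77 in wild-type replicate 3 and −1.33 in replicate 4. The Jmjd3-/- arrays were within 0.02 of each other and just above wild-type replicate 4. The difference was 0.33 (SE 0.17, 95% interval −0.17 to 0.82, limma adjusted p = 0.565), beside 0.44 between the wild-type arrays. It was 0.11 without wild-type replicate 3 and 0.55 without wild-type replicate 4. A second Spry4 probe was not well above background on any array.

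Dusp6, the gene of a phosphatase that inactivates ERK, was bright on every array. Its log2 signal was 5.16 in Jmjd3-/- replicate 1 and 5.01 in replicate 9, compared with 4.85 in wild-type replicate 3 and 5.02 in replicate 4. It was the member whose genotypes overlapped, since Jmjd3-/- replicate 9 lay just under wild-type replicate 4. The difference was 0.15 (SE 0.11, limma adjusted p = 0.643), with a 95% interval of −0.15 to 0.46. It ranged from 0.07 without wild-type replicate 3 to 0.24 without wild-type replicate 4. The other 8 members had both Jmjd3-/- arrays above both wild-type arrays, as did 23.0% of all genes tested, and 0 members had both below, as did 23.7% of all genes.

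**Figure D2:**
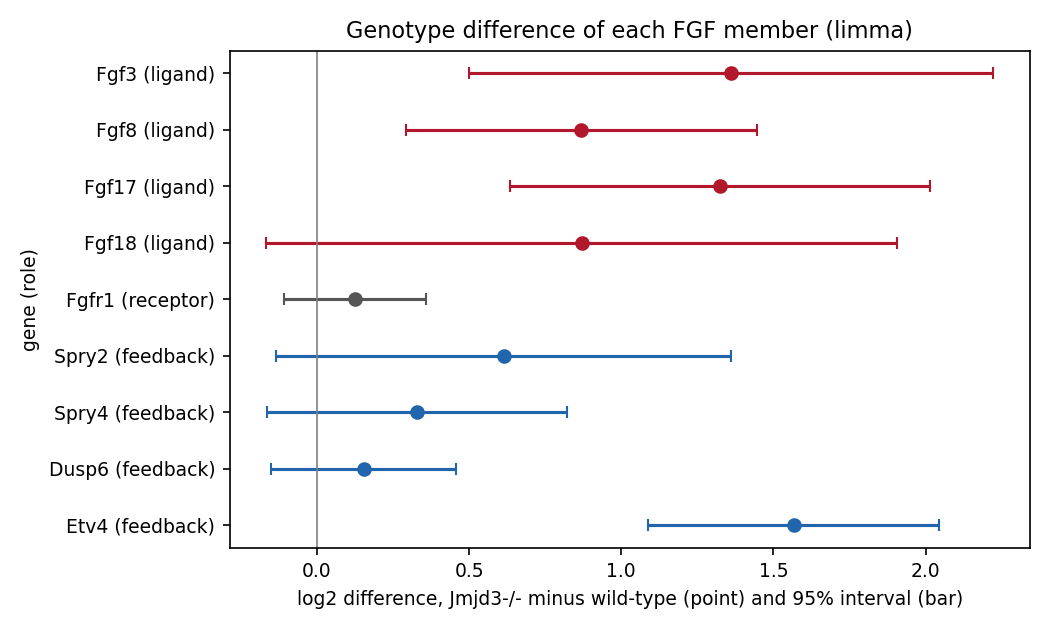
Points are log2 differences, Jmjd3-/- minus wild-type, and bars are 95% intervals from limma, with 2 arrays per genotype. The intervals of Fgf3, Fgf8, Fgf17 and Etv4 lie above 0, and those of Fgf18, Fgfr1, Spry2, Spry4 and Dusp6 include 0.

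The ligands were then set beside the feedback and target genes. The median log2 difference was 1.10 over the 4 ligands and 0.47 over the 4 feedback and target genes, against −0.01 over all genes tested. The mean of the ligands stood 1.46 and 0.75 above its wild-type mean in Jmjd3-/- replicates 1 and 9, and the wild-type arrays lay 0.07 to either side of that mean. The mean of the feedback and target genes stood 0.78 and 0.55 above in Jmjd3-/- replicates 1 and 9, with the wild-type arrays 0.17 to either side. The ligand mean less the feedback mean, each relative to wild-type, was 0.69 in Jmjd3-/- replicate 1, 0.19 in replicate 9, 0.10 in wild-type replicate 3 and −0.10 in wild-type replicate 4. The excess of ligands over feedback genes in replicate 9 was thus close to the spread of the wild-type arrays. With 2 arrays per genotype an exact test of a single value cannot go below p = 0.333, so that gap was not tested.

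The feedback group was not uniform. The difference of Etv4 was above that of every member ligand, while those of Spry2, Spry4 and Dusp6 were below. For Spry2 and Fgf18 that order turned when an array was left out, with 0.46 for Spry2 and 0.38 for Fgf18 without Jmjd3-/- replicate 1, and 0.93 for Spry2 and 0.84 for Fgf18 without wild-type replicate 4. The feedback median depended on the wild-type samples. It was 0.21 without wild-type replicate 3 and 0.74 without wild-type replicate 4. The ligand median depended on the Jmjd3-/- samples, with 0.80 without replicate 1 and 1.50 without replicate 9.

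Markers of the cells that make FGF ligands in the tail were read on the same arrays. The tail bud list (T, Cdx1, Cdx2, Cdx4, Wnt3a, Wnt5b, Nkx1-2, Sp5, Cyp26a1, Evx1 and Mixl1) had 10 of 11 genes tested. All 10 had positive differences, beside 6364 of all 13579 genes tested. The median of the 10 was 1.09, and 0 passed over all genes. The summed level of the list, in units of the 75th percentile of the array, was 37.0 in Jmjd3-/- replicate 1 and 22.3 in replicate 9, compared with 13.2 in wild-type replicate 3 and 13.8 in replicate 4. The list's median above the wild-type mean was 1.54 in Jmjd3-/- replicate 1 and 0.71 in replicate 9, beside 1.50 and 0.80 for the ligands. The presomitic list summed to 54.0 and 29.5 in Jmjd3-/-, against 14.5 and 16.3 in wild-type, with a median of 0.88 over 8 of 8 genes and 0 passing. The sums are set by the brightest probes, and Tbx6 and Dll3 made up 83.1% to 88.1% of the presomitic sum on each array, while Cdx2 and Wnt5b made up 40.8% to 46.7% of the tail bud sum. In the tail bud list all 10 tested genes had both Jmjd3-/- arrays above both wild-type arrays, as did 23.0% of all genes tested. In the presomitic list 4 of 8 did, namely Tbx6, Msgn1, Dll1 and Dll3. The genotypes overlapped for Mesp2, Rspo3 and the oscillating genes Hes7 and Lfng. Hes7 had a log2 signal of −4.36 and −3.47 in Jmjd3-/-, against −4.15 and −4.39 in wild-type. The part of these cells in the FGF values was not tested.

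Lists for other parts of the embryo had other orders of the arrays. The limb bud and ridge list, which pools genes of the ridge, a source of FGF8, with genes of the limb mesenchyme, summed to 6.17 and 7.73 in Jmjd3-/-, against 8.47 and 7.47 in wild-type, and 2 of its 9 genes, Dlx6 and En1, were not well above background on any array. Its genes went different ways and 0 passed. Sp8, a transcription factor gene of the ridge, had a log2 signal of 0.23 and −0.19 in Jmjd3-/-, against −0.68 and −0.54 in wild-type. Its difference was 0.62 (SE 0.18), and Dlx5 differed by 0.08 (SE 0.07). For both genes the Jmjd3-/- arrays lay above both wild-type arrays, as for 23.0% of all genes tested. Wnt7a differed by −0.51 (SE 0.54), Msx2 by −0.01 (SE 0.24) and Tbx4 by −0.03 (SE 0.36), each with overlap. The mesenchyme genes Tbx5 and Prrx1 differed by −1.05 (SE 0.16) and −0.74 (SE 0.10). The forebrain, midbrain and isthmus list summed to 0.246 and 0.409 in Jmjd3-/-, against 0.409 and 0.484 in wild-type, and its defining genes Otx2 and Six3 were not well above background on any array. The branchial arch list summed to 5.33 and 5.56 in Jmjd3-/-, against 6.45 and 6.76 in wild-type. Of its 8 genes, all tested, 1 passed, Barx1, a transcription factor gene of the arch mesenchyme, which was lower, with a difference of −2.75 (SE 0.10, limma adjusted p = 0.0409), beside 0.0147% of all genes lower. Barx1 passed in 6 of 13 alternatives, with a limma adjusted p from 0.0259 to 0.314. The myotome list summed to 2.95 and 4.06 in Jmjd3-/-, against 5.99 and 4.97 in wild-type, and the primitive erythroid list to 311 and 440 in Jmjd3-/-, against 470 and 593 in wild-type, with 0 genes passing in either of them.

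**Figure D3:**
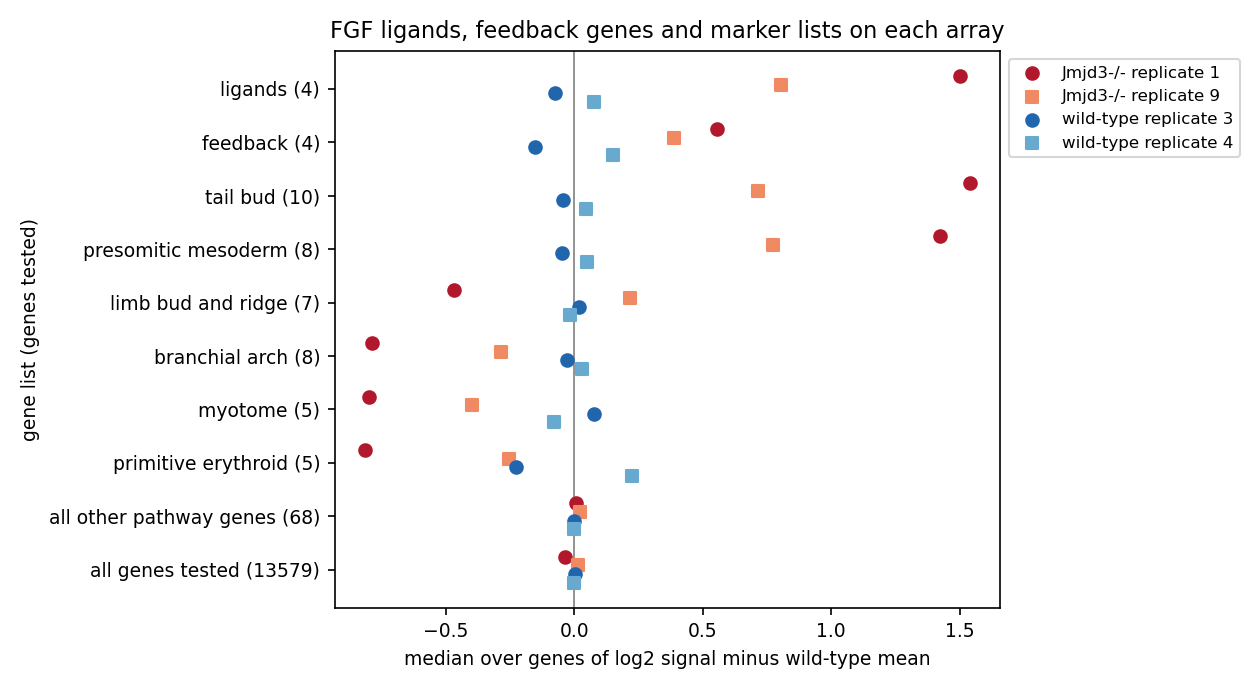
Each point is the median over the tested genes of a list of the log2 signal less the wild-type mean, on 1 array, and the number of genes stands after the name of the list. The ligands, feedback, tail bud and presomitic lists show Jmjd3-/- replicate 1 highest, replicate 9 next and the wild-type arrays lowest. The wild-type arrays lie near 0 for these lists, except feedback, at −0.15 in wild-type replicate 3 and 0.15 in replicate 4. The medians of all other pathway genes and of all genes tested stay near 0 on all arrays.

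The rest of the pathway differed in both directions. Of 84 other FGF pathway genes, 68 were tested and 0 passed over all genes (limma), with 2 higher and 6 lower at an unadjusted p under 0.05, beside 5.15% and 5.92% of all genes. Their differences were positive for 32 genes and negative for 36, with a median of −0.01, equal to that of all genes. Both Jmjd3-/- arrays were above both wild-type arrays for 20 of the 68 and below for 15, beside 23.0% and 23.7% of all genes. Of the 17 other ligand genes, 7 were tested and 0 passed. Fgf9 differed by 0.81 (SE 0.35) and by 0.43 on a second probe, Fgf10, a limb bud ligand gene, by −0.38 (SE 0.09), Fgf11 by 0.16 (SE 0.15) and Fgf5 by −1.39 (SE 0.53). Fgf5 had a log2 signal of −5.12 in Jmjd3-/- replicate 1 and −3.68 in replicate 9, compared with −2.98 in wild-type replicate 3 and −3.04 in replicate 4, so most of its difference came from replicate 1.

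Among 5 tested receptor and co-receptor genes other than Fgfr1, 0 passed. Fgfr2 differed by −0.28 (SE 0.22), Fgfr3 by −0.30 (SE 0.13), Fgfr4 by −0.23 (SE 0.10) and Fgfrl1, the gene of a receptor without a kinase domain, by 0.17 (SE 0.10). The probes of Fgfr3 ranged from −0.96 to −0.11. Thus the receptors that were named lay within 0.30 of no difference by their brightest probes.

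Of 10 tested inhibitor genes outside the members, 4 had positive and 6 negative differences and 0 passed. Il17rd, which encodes the membrane inhibitor SEF, had a log2 signal of 3.76 in Jmjd3-/- replicate 1 and 2.89 in replicate 9, compared with 2.45 in wild-type replicate 3 and 2.60 in replicate 4, a difference of 0.80 (SE 0.33). Dusp9, the gene of another ERK phosphatase, had 1.40 and 1.97 in Jmjd3-/-, against 2.61 and 2.58 in wild-type, a difference of −0.91 (SE 0.22). Dusp4, a nuclear phosphatase gene, differed by 0.49 (SE 0.20) and Spred3, the gene of a Sprouty-related inhibitor, by −0.64 (SE 0.21), with its probe well above background on 1 of the 2 Jmjd3-/- arrays. Il17rd differed by 0.40 on its dimmer measured probe and Dusp9 by −0.54. The values of inhibitor genes thus lay on both sides of 0.

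Flrt2, which encodes a transmembrane protein of a family that binds FGF receptors, had a log2 signal of −2.65 in Jmjd3-/- replicate 1 and −2.66 in replicate 9, compared with −1.36 in wild-type replicate 3 and −1.51 in replicate 4. Its difference of −1.22 (SE 0.09, limma adjusted p = 0.152) was the most negative of the modulators, and a dimmer probe gave −0.64. Flrt3 differed by −0.18 (SE 0.10). Among 8 tested transcription factor and early response genes 0 passed. Of the relatives of Etv4 in the same ETS subfamily, Etv5 differed by 0.40 (SE 0.16) and Etv1 by −0.18 (SE 0.14) with overlap. Elk3 differed by −0.42 (SE 0.09), Myc by −0.23 (SE 0.10) and the early response gene Ier2 by 0.33 (SE 0.17).

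The 22 transduction genes, from adaptors to ERK kinases, all passed the filter on dim probes and lay between −0.14 and 0.35, with a median of 0.05 and 0 past the threshold. Braf differed by 0.35 (SE 0.12), with −0.002 for another of its probes, Rps6ka1 by 0.27 (SE 0.12), Mapk3 by 0.20 (SE 0.09) and Sos2 by 0.15 (SE 0.08). The 14 heparan sulphate and proteoglycan genes had a median of −0.05 and 0 past the threshold. Sulf1, whose product trims sulphate from heparan sulphate outside the cell, differed by 0.73 (SE 0.20), Sulf2 by −0.14 (SE 0.08), the syndecan gene Sdc3 by −0.27 (SE 0.08) and the glypican gene Gpc3 by 0.21 (SE 0.08).

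**Figure D4:**
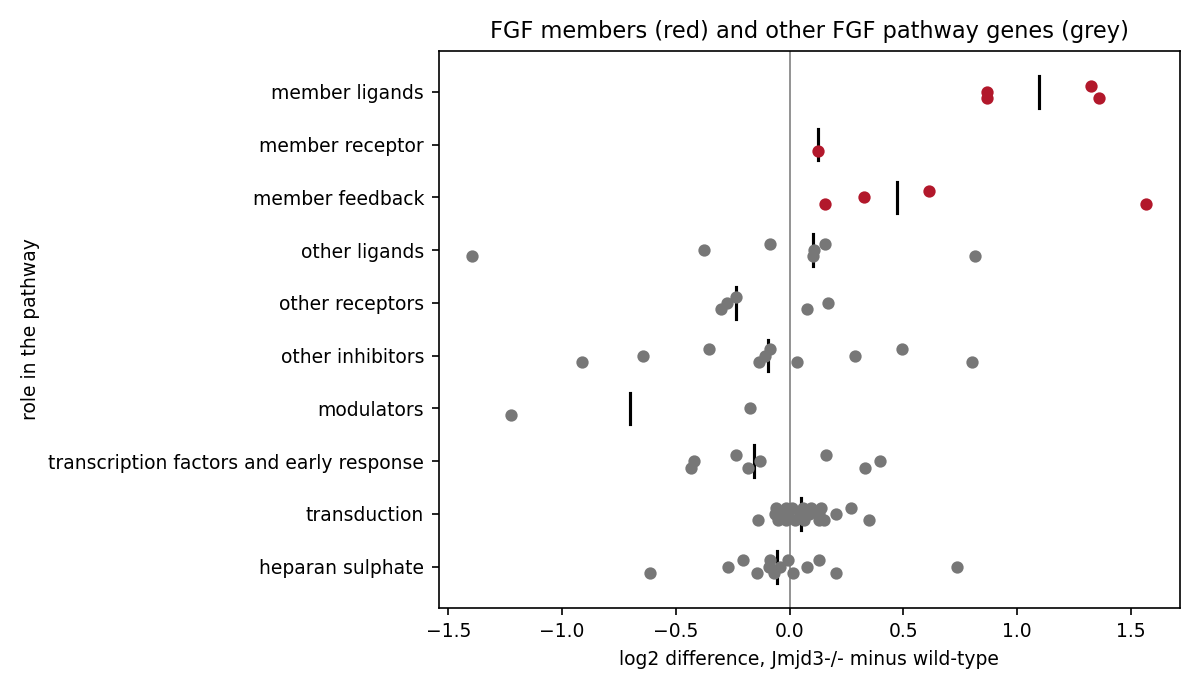
Points are log2 differences, Jmjd3-/- minus wild-type, of single genes by role, and black bars are medians. The member ligands lie between 0.87 and 1.36, to the right of the other roles' medians, while the transduction genes lie between −0.14 and 0.35.

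The genes most like Fgf8 were found by the distance between centred log2 profiles over the 4 arrays. They were Lama5, a laminin subunit gene (distance 0.047), the glycolytic enzyme gene Aldoc (0.055), Btg2 (0.056), Arhgap24 (0.073) and Spag6 (0.082), and 396 of 13579 genes lay within 0.5 of Fgf8. For Dusp6 the nearest were Olfr59 (0.025), Csnk1g1 (0.026), Cyb561d1 (0.027), Rbm12b1 (0.032) and Zfp106 (0.033). Within 0.5 of Dusp6 lay 10337 genes. The distance was taken on unscaled values, so this count shows that Dusp6 and most genes varied little across the arrays. It does not show that their profiles had the same shape, and 4 arrays give such likeness little weight.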

How the data were processed

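The deposited scanner files hold spot intensity in arbitrary units, from 1-colour scans read with Feature Extraction 10.7.3.1 (Agilent), as the submitters' processing notes also say. Per the file headers, that software subtracted background and fitted a spatial trend on each array. The deposited table of log2 values has no stated scale. On each array it equalled log2 of the processed intensity after subtraction of the 75th percentile and the wild-type mean (r from 0.995 to 0.997 across probes, and 99.9% of probes within 0.01). Its scale, centring and direction are thus known only from the values. Its column medians were −0.02 in Jmjd3-/- replicate 1, 0.05 in replicate 9, 0.02 in wild-type replicate 3 and −0.02 in replicate 4.

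The 1639 control spots of 45018 were left out, the spots of a probe were averaged on the log2 scale, and the 75th percentile over 41174 probes was subtracted. The RefSeq table of GRCm38.p6 named 26682 probes by accession, 5 by symbol and 23 by synonym, and 14464 probes stayed unnamed. The file headers name mm9, so coordinates were taken only from the promoter table and its own build. The probe with the highest mean stood for a gene, and genes entered the test where it exceeded background clearly (the scanner's own flag) on both arrays of either genotype. The 13579 genes were fitted with limma 3.58.1 in R 4.3.3 (lmFit and eBayes, no covariate, Benjamini-Hochberg over all genes, threshold 0.05). The fit was also run on simulated data, but with differences larger than those of the members, so that run does not bear on them. The prior had 1.79 degrees of freedom. Standard errors of further probes come from the same fit over all probes.

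The members, the lists and the alternatives were chosen with earlier results of these data known. The named genes are the members, Kdm6b, up to 4 genes of each other role by p, and 5 genes nearest to Fgf8 and to Dusp6; Etv1 and the single marker genes given with values or named apart from their list were chosen after their values were seen, as were the alternatives for Barx1. For normexp (offset 50) the spot median was used where a spot mean had been planned, since the files used here hold no spot mean. The alternatives were quantile and median scaling, normexp, other filters and probe rules, flagged spots, another variance model, the deposited table and leaving out each array.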

Additional observations from a re-analysis of the deposited data

How the results depend on the processing

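All 117 values of the 9 members under the 13 alternatives were above 0. This count carries little weight. For every member but Dusp6, leaving out an array could not turn the sign, because the genotypes did not overlap. The other filters, the flagged spots and the other variance model left the differences of the members unchanged. The share of all genes that kept their sign was not counted. In the alternatives that kept all 4 arrays, 0 members passed (limma). The differences of Etv4, Fgf17 and Fgf18 were 1.77, 1.64 and 1.36 without Jmjd3-/- replicate 9. They were 1.36, 1.01 and 0.38 without Jmjd3-/- replicate 1. Leaving out an array moved the ligand median to between 0.80 and 1.50 and the feedback median to between 0.21 and 0.74. The ligand median less the feedback median lay between 0.42 and 0.95 over all alternatives. By means in place of medians, the gap was 0.69 in Jmjd3-/- replicate 1 and 0.19 in replicate 9. It was 0.10 in wild-type replicate 3 and −0.10 in wild-type replicate 4. Over all genes, 5 passed as reported. The count was 0 with quantile normalisation, 0 with no filter on dim probes, 0 with a filter on all 4 arrays, 2 with normexp, 7 with median scaling, 5 without outlier spots, 5 with the deposited table, 3 with probes averaged per gene and 3 with an intensity trend and robust prior, and 0 to 177 when an array was left out, with the 177 without Jmjd3-/- replicate 9; the cause was not tested. Fits without an array leave 1 sample in a genotype, which is assumed to vary like the other. No paired analysis was possible because the genotypes share no replicate number. Signal over background limits Fgf3 and Fgf17, whose differences of 1.36 and 1.33 were 0.79 and 0.86 with normexp.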
